A study of Mus musculus with 18 samples.

Results

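Transcripts of leukocytes were followed through 18 RNA-seq libraries from mice that carry a point variant of Nup93, a scaffold protein of nuclear pores. The list held 39 genes, chosen by lineage as textbook genes of leukocytes in general, macrophages and monocytes, T cells, B and plasma cells, NK cells and neutrophils, with 3 chemokine genes. That choice was made with earlier results of these data known. Of these, 38 had a row among the 24602 gene symbols of the count table, and Trbc2 was not analysed here. The 38 comprised 6 pan-leukocyte genes, 12 macrophage and monocyte genes, 3 chemokine genes, 7 T cell genes, 6 B and plasma cell genes, 2 NK and cytotoxic genes and 2 neutrophil genes.

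The series title gives the strain of all the mice as 129S1/SvlmJ. Nuclear RNA and total RNA were sequenced in 3 libraries each from wild-type mice (Nuclear_WT, Total_WT), from mice heterozygous for the R388W allele of Nup93 (Nuclear_Het, Total_Het) and from mice homozygous for it (Nuclear_Hom, Total_Hom). The series text describes isolated podocytes of wild-type and homozygous mice, while the sample labels name the source only as mouse tissue. Age, sex, the number of animals and how the knock-in was made are not given in the sources used here. Whether the 3 libraries of a group are separate mice or repeats from 1 preparation is not said, so each p-value reflects library-to-library spread that could be technical only. Nup93 itself, which a point variant need not change in level, ranged from a mean of 15.9 CPM (read counts scaled for library size) in Nuclear_WT to 22.6 in Nuclear_Het, so it does not check the labels.

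Leukocytes of the kidney include resident macrophages and dendritic cells as well as lymphocytes and neutrophils that arrive through the blood. Ptprc encodes CD45, the phosphatase on the surface of all nucleated blood cells, and the other pan-leukocyte genes encode actin, lysosomal and immune receptor adaptor proteins. Lineage genes then separate the cells: lysozyme and the CSF1 receptor for macrophages, the CD3 chains for T cells, the CD79 chains for B cells, the J chain for antibody-secreting plasma cells and the calgranulins S100a8 and S100a9 for neutrophils. In a bulk library, fewer cells of a type and less RNA per cell cannot be told apart.

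The libraries held 17405493 to 23462056 counts. The deposited column of Total_WT replicate 1 held 200140709 counts, and the 9 nuclear columns together held 181106189, so the nuclear sum was subtracted gene by gene, which left 19034520 counts and 0 genes below 0. Total_Hom replicate 2 stood apart through the ribosomal RNA gene Rn45s, which reached 25810.0 CPM on average in Total_Hom, with single libraries of 2150.0 to 72920.0. Nuclear_Het replicate 3 also stood apart, with 1667 CPM of Rn45s against 9677 and 9140 in replicates 1 and 2. Its mean chi-square per gene against them was 10.3 and 11.3, where replicates 1 and 2 differed by 2.40. That mean includes Rn45s, so it is not separate evidence of a difference across the other genes. Xist, the RNA of the inactive X chromosome, averaged 516 CPM in Nuclear_Het, 504 in Nuclear_Hom and 346 in Total_WT, against 0.538 in Nuclear_WT, 0.624 in Total_Het and 1.25 in Total_Hom. The 4 Y-linked genes ran the other way, with sums of 162, 156 and 159.9 CPM in the 3 groups low in Xist and at most 2.59 in the others. Nuclear and total libraries of 1 genotype were therefore never alike in Xist, and within a fraction WT differed from both mutant groups. Only Hom against Het within a fraction compares groups alike in Xist, and in every other comparison the sex of the animals cannot be told apart from the genotype or the fraction. The podocyte gene Nphs1, of the slit diaphragm protein nephrin, averaged 6.28 CPM in Total_Het, its lowest group, to 18.2 in Nuclear_Het, its highest. Summed over 8 podocyte markers, the lowest group was Total_Het at 255 CPM and the highest Total_Hom at 468, with 427 in Nuclear_Het. The 9 proximal tubule markers summed to 30070.0 CPM in Nuclear_Het, their lowest group, and 52910.0 in Total_Het, their highest.

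The promoters of 5 members that the results turn on, the plasma cell gene Jchain, both lysozyme genes, the B cell gene Cd79a and the neutrophil gene S100a8, are shown because results of each of these lineages rest on them and because the lysozyme genes resemble each other. They were taken from the RefSeq promoter table of the GRCm38.p6 assembly, which held 27 of the members with 30 promoters in all, each from 250 bases before the start of transcription to 50 after it. Capitals mark the 7 letters AGGAAGT or their reverse complement ACTTCCT, a core to which transcription factors of the ETS family, such as PU.1 of myeloid and B cells, are known to bind. The Jchain window holds neither form. Each line gives the 250 bases before the start, 5′ to 3′ on the gene's own strand.
Jchain, chr5:88527898-88528147, minus strand: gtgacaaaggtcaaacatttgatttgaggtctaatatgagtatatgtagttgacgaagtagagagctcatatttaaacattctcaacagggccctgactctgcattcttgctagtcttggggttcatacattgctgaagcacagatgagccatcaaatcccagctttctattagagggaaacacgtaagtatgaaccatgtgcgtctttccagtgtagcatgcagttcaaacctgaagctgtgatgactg
Lyz2, chr10:117282273-117282522, minus strand: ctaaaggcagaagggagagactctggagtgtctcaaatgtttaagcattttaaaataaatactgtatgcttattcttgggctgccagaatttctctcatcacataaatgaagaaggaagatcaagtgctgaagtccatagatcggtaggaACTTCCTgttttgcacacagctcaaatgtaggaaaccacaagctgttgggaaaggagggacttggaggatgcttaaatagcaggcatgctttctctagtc
Lyz1, chr10:117292869-117293118, minus strand: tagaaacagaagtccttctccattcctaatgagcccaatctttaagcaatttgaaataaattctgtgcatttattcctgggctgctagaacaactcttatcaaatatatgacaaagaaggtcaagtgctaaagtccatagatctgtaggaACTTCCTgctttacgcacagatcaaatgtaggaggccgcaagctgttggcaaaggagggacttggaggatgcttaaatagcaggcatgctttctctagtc
Cd79a, chr7:24897247-24897496, plus strand: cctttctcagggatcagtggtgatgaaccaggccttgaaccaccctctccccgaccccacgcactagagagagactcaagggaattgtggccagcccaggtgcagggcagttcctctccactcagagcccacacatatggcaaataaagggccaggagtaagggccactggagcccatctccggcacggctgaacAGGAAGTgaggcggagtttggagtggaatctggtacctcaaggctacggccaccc
S100a8, chr3:90668821-90669070, plus strand: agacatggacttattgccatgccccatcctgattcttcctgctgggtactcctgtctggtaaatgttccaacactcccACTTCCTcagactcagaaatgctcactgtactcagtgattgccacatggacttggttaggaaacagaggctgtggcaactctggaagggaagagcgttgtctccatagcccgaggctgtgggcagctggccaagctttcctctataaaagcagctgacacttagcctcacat

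Of the 30 member promoters, 12 held the ETS core on either strand (40.0%), against 9.35% of the 32851 promoters in the table. They belonged to 10 genes, namely Ptprc, Ctss, Lyz1, Lyz2, Mrc1, Cd3d, Cd3e, Lck, Cd79a and S100a8, so the match was spread over pan-leukocyte, macrophage, T cell, B cell and neutrophil genes. These letters were chosen after the promoters had been read. The windows of both Ptprc promoters overlap and share an ACTTCCT site, which was counted in each, and the Ctss match runs across the start of transcription. The octamer ATGCAAAT, known from B cell promoters, and its reverse complement ATTTGCAT were in 0 of 30 member promoters and in 1.74% of all. Only 3 of the 30 were of B and plasma cell genes, namely Jchain, Cd79a and Pou2af1. The promoters of Ms4a1, Cd79b and Mzb1 were not among them, and at so low a share 0 of 30 is not a difference from all promoters. Neither set of letters contains the other, and a match or its absence describes only these letters in these windows. Lyz1 and Lyz2 lie side by side, and their upstream windows were 79.4% identical over 252 aligned positions, with the last 50 bases before the start identical.

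Across the 6 groups the leukocyte genes moved largely together. The highest mean was in Nuclear_Het for 32 of 38 genes, against 17.97% of all genes that averaged 0.5 CPM or more. In 30 of these 32 all 3 Nuclear_Het libraries lay above the other 15 libraries, as in 7.26% of all those genes. The lowest mean was in Nuclear_WT for 32 genes, against 21.48%, and 23 of them had all 3 libraries below the other 15, against 6.95%. The exceptions to the first pattern were Csf1r and Gzma, highest in Total_WT, Jchain and Nkg7, highest in Total_Het, and S100a8 and S100a9, highest in Total_Hom. Cd68, Cd3g and Nkg7 were lowest in Nuclear_Hom, and Csf1r, Gzma and Cd3e in Total_Hom. The spread between libraries was small, with a biological coefficient of variation of 3.05% in the nuclear fit, 3.90% in the total fit and 3.54% in the fit of all libraries.

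**Figure D1:**
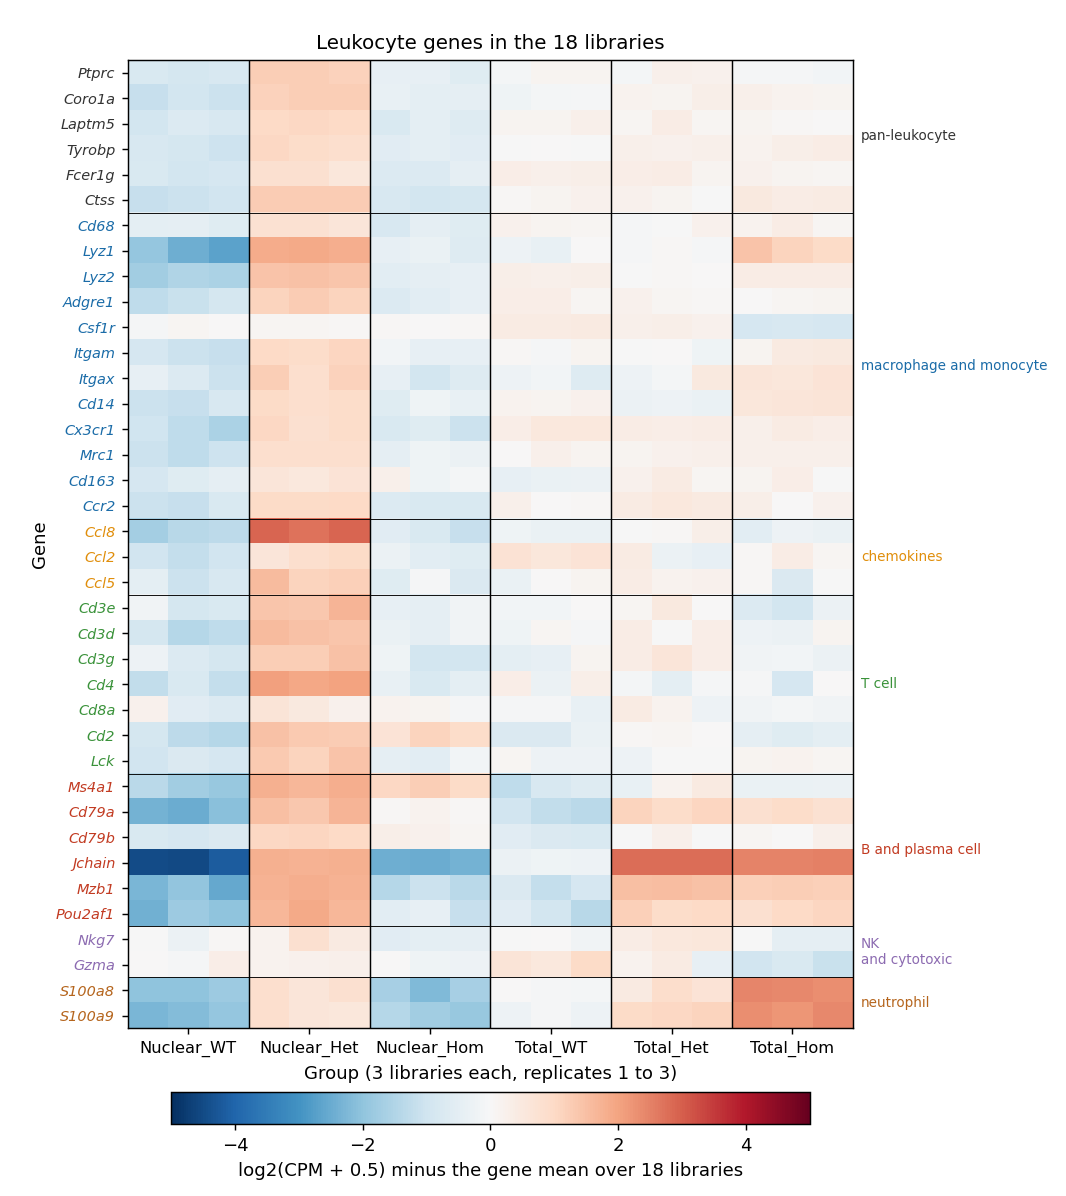
Each row is 1 of the 38 leukocyte genes, grouped by lineage, and each column 1 of the 18 libraries; colour gives the log2 level relative to the gene's own mean over the libraries, on a scale of CPM with 0.5 CPM added. By group mean, Nuclear_Het is the highest in 32 genes and Nuclear_WT the lowest in 32.

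Summed by lineage, the pan-leukocyte genes reached 220.5 ± 3.85 CPM in Nuclear_Het (mean ± SD, n = 3), against 51.5 ± 1.1 in Nuclear_WT and 65.8 ± 0.855 in Nuclear_Hom. In total RNA they stayed between 107 in Total_WT and 116 in Total_Hom. The macrophage and monocyte genes summed to 158, 541 and 220.0 CPM in Nuclear_WT, Nuclear_Het and Nuclear_Hom. T cell genes gave 2.58, 25.2 and 6.45 CPM in the same order, and chemokine genes 1.17, 21 and 2.25. The sum of the B and plasma cell genes was almost all Jchain, at 441 CPM in Nuclear_Het, 819.8 in Total_Het and 671 in Total_Hom, of which Jchain gave 384, 783 and 638. The B cell gene Ms4a1 did not follow that sum, with 3.84 CPM in Nuclear_Hom against 1.73 in Total_Het and 1.14 in Total_Hom, nor did Cd79b, with 5.86, 5.36 and 5.5. Neutrophil genes were highest in Total_Hom at 35.2 CPM. No test was run on these sums, since 3 libraries against 3 cannot reach 0.05 in an exact permutation test. The erythroid gene Alas2, of the first enzyme of heme synthesis in red cell precursors, averaged 15.4 CPM in Nuclear_Het, its lowest group, while the globin genes had 0 to 2 counts per group, and the part of blood in these results was not tested.

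The homozygous and heterozygous mice were compared with wild type in nuclear RNA. In Nuclear_Het against Nuclear_WT, 36 of the 38 genes rose and 0 fell by edgeR's quasi-likelihood test with Benjamini-Hochberg adjustment over all genes tested, where 32.8% of all genes rose and 31.7% fell. The unadjusted p was under 0.05 for the same numbers of genes, 36 higher and 0 lower, and DESeq2 called 35 higher and 0 lower. Without Nuclear_Het replicate 3, edgeR called 36 higher and 0 lower. The members' median change was 2.40 on the log2 scale, against 0.02 over all genes. Csf1r and Gzma did not pass. The 9 proximal tubule markers, of the cells that make up most of the kidney cortex, summed to 47210.0 CPM in Nuclear_WT, 30070.0 in Nuclear_Het and 31490.0 in Nuclear_Hom, so they were highest where the leukocyte genes were lowest. In total RNA their sums were 32160.0, 52910.0 and 30240.0 CPM, and their part in the leukocyte results was not tested. In Nuclear_Hom against Nuclear_WT, 26 genes rose and 0 fell, against 26.5% and 27.8% of all genes, with 27 higher and 1 lower at an unadjusted p under 0.05 and 22 higher and 0 lower by DESeq2. Their median change was 0.65. Without Nuclear_WT replicate 2, 1 gene fell.

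Hom against Het within nuclear RNA, the comparison of groups alike in Xist, showed 0 genes higher and 35 lower, against 21.4% and 21.8% of all genes. The unadjusted p gave 0 higher and 35 lower, DESeq2 0 higher and 34 lower, and edgeR without Nuclear_Het replicate 3 0 higher and 35 lower. The median change was -1.81. Csf1r, Cd8a and Gzma did not pass.

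In total RNA edgeR called more genes higher than lower against Total_WT in both mutant groups, but more lower than higher in Total_Hom against Total_Het. In Total_Hom against Total_WT, 17 genes rose and 4 fell of 37 tested, Cd8a having too few counts, against 30.6% and 31.0% of all genes. In Total_Het against Total_WT, 16 rose and 5 fell, against 30.9% and 30.3%. Between Total_Hom and Total_Het, 8 were higher and 13 lower in Total_Hom, against 32.9% and 34.1%. DESeq2 called 14 higher and 2 lower in Total_Hom, 14 and 4 in Total_Het, and 8 and 8 between Total_Hom and Total_Het. Without Total_Hom replicate 1, 2 genes fell in Total_Hom against Total_WT in place of 4, and without replicate 2, the library high in Rn45s, 16 rose and 3 fell. The members' medians were 0.11, 0.33 and -0.08. Scaled by library totals alone, the fall in Total_Het involved 10 genes instead of 5, and the share of calls that were higher changed from 76.2% to 52.4% there and from 38.1% to 61.1% in Total_Hom against Total_Het. Over all genes that share changed from 50.48% to 24.45% and from 49.06% to 68.38% in the same comparisons. In Total_Hom against Total_WT the members' share was 80.95% in the main fit and 80.0% with library totals alone. Over all genes it was 49.65% and 45.2% there. With the deposited column of Total_WT replicate 1 as it stood, 7 genes rose and 2 fell in Total_Het, and 11 rose in Total_Hom against Total_WT.

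**Figure D2:**
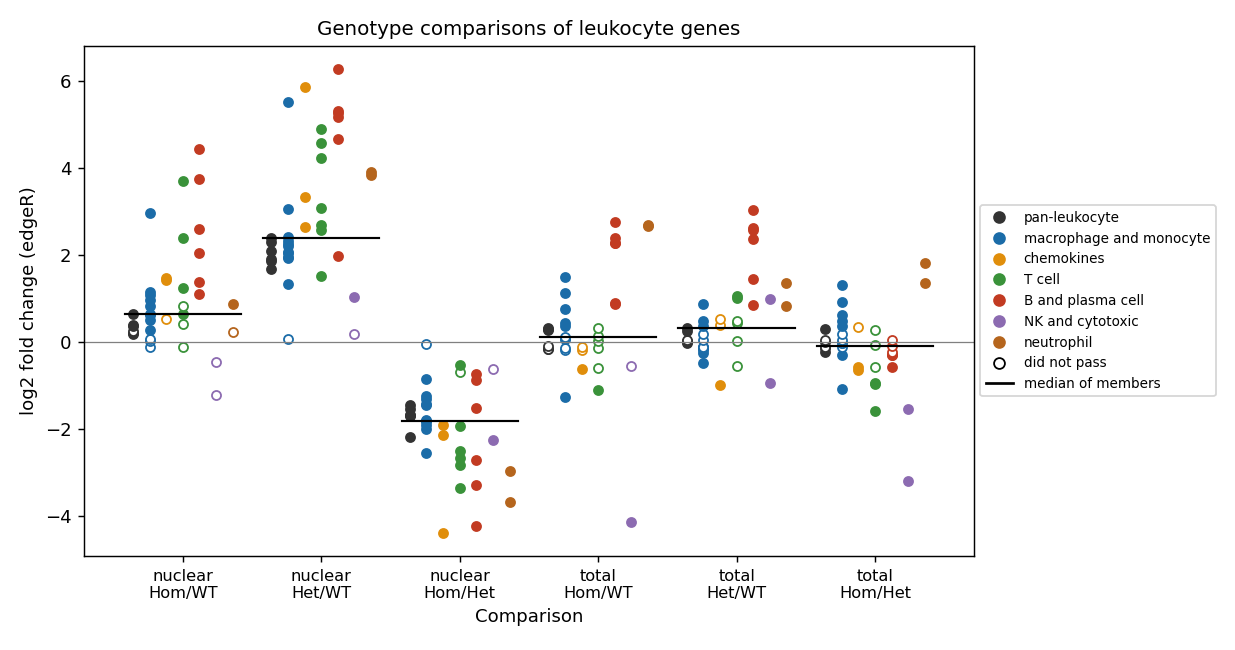
Points are the log2 changes of single leukocyte genes in the 6 genotype comparisons, nuclear and total RNA apart; filled points passed at an adjusted p under 0.05, open points did not, colour gives the lineage and the black line the members' median. In Het against WT the nuclear median is 2.40 and the total median 0.33.

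Among the pan-leukocyte genes, Ptprc is the CD45 phosphatase, Coro1a a coronin that organises actin, Laptm5 a lysosomal membrane protein of blood cells, and Ctss the cysteine protease cathepsin S. Tyrobp and Fcer1g encode adaptors that carry signals from activating immune receptors. All 6 rose in Nuclear_Het and fell again in Nuclear_Hom against Nuclear_Het, and 4 of 6 rose in Nuclear_Hom against Nuclear_WT. Among all genes 32.8% rose, 21.8% fell and 26.5% rose in the same comparisons. Ptprc measured 8.24, 7.53 and 7.96 CPM in Nuclear_WT, 34.1, 34.1 and 32.8 in Nuclear_Het and 10.7, 10.8 and 9.4 in Nuclear_Hom. For Ptprc, total RNA gave 13.4, 16.1 and 15.8 CPM in Total_WT, 13.5, 17.1 and 16.6 in Total_Het and 13.7, 13.6 and 13.1 in Total_Hom. The nuclear groups did not overlap, with Nuclear_Het highest, while the total groups lay close together. Ptprc rose 4.25-fold in Nuclear_Het (log2 2.09 ± 0.08 SE, edgeR adjusted p = 1.67e-42) and 1.31-fold in Nuclear_Hom (log2 0.39 ± 0.09).

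Coro1a measured 9.47, 11.1 and 10.1 CPM in Nuclear_WT, 48.4, 51.9 and 50.9 in Nuclear_Het and 16.4, 15.2 and 15.8 in Nuclear_Hom. For Coro1a, total RNA gave 18.8, 20.2 and 20.9 CPM in Total_WT, 24.7, 23.8 and 26.9 in Total_Het and 26, 24.7 and 24 in Total_Hom. Its Total_Het and Total_Hom libraries both lay above those of Total_WT (log2 0.33 ± 0.07 and log2 0.32 ± 0.07), calls that were lost with the deposited column of Total_WT replicate 1 and, for Total_Het, with library totals alone. Laptm5 measured 10.2, 11.9 and 11 CPM in Nuclear_WT, 39.6, 41 and 39.2 in Nuclear_Het and 11.3, 13.8 and 12.4 in Nuclear_Hom. For Laptm5, total RNA gave 21.4, 21.4 and 23.2 CPM in Total_WT, 20.8, 25.8 and 20.7 in Total_Het and 21.5, 20.4 and 20.1 in Total_Hom. Only Nuclear_Het stood apart for Laptm5 (log2 1.86 ± 0.07), and neither mutant group differed detectably from Total_WT. Ctss measured 9.47, 10.1 and 11 CPM in Nuclear_WT, 53.1, 53.1 and 53 in Nuclear_Het and 12.3, 11.4 and 11.5 in Nuclear_Hom. For Ctss, total RNA gave 23, 24.2 and 25.9 CPM in Total_WT, 25.7, 24.5 and 21.7 in Total_Het and 30.7, 28.8 and 29.3 in Total_Hom. Ctss had the largest nuclear rise of the 6 (log2 2.39 ± 0.07 SE, edgeR adjusted p = 3.36e-52), and it was also higher in Total_Hom than in Total_WT (log2 0.28 ± 0.06) and Total_Het (log2 0.31 ± 0.06).

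Tyrobp measured 8.84, 8.35 and 7.41 CPM in Nuclear_WT, 33.1, 30.2 and 28.9 in Nuclear_Het and 10.4, 11.1 and 10.5 in Nuclear_Hom. For Tyrobp, total RNA gave 15.8, 16.1 and 15.8 CPM in Total_WT, 19.1, 18.4 and 19.3 in Total_Het and 18.1, 19.8 and 20.6 in Total_Hom. It rose in Nuclear_Het (log2 1.90 ± 0.08), in Nuclear_Hom (log2 0.38 ± 0.09), in Total_Hom (log2 0.30 ± 0.07) and in Total_Het (log2 0.25 ± 0.08), the last a call that was lost with library totals alone. Fcer1g measured 4.19, 3.66 and 3.95 CPM in Nuclear_WT, 13.5, 13.3 and 11.4 in Nuclear_Het and 4.4, 4.37 and 5.33 in Nuclear_Hom. For Fcer1g, total RNA gave 9.37, 8.9 and 9.3 CPM in Total_WT, 9.42, 9.79 and 8.23 in Total_Het and 8.67, 8.16 and 7.99 in Total_Hom. The adaptor rose in Nuclear_Het (log2 1.69 ± 0.11) with no overlap, whereas its total libraries overlapped between Total_WT and Total_Het.

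The macrophage and monocyte genes cover the lysozymes Lyz1 and Lyz2, the CSF1 receptor Csf1r, the lysosomal protein Cd68, the F4/80 antigen Adgre1, the integrin chains Itgam and Itgax, the endotoxin co-receptor Cd14, the scavenger receptors Mrc1 and Cd163 and the chemokine receptors Cx3cr1 and Ccr2. In Nuclear_Het 11 of 12 rose and 0 fell, and against Nuclear_Het the same count of 11 fell in Nuclear_Hom; DESeq2 gave 11 in both. In Nuclear_Hom against Nuclear_WT 9 rose. Among all genes 32.8% rose in Nuclear_Het and 26.5% in Nuclear_Hom, and 21.8% were lower in Nuclear_Hom than in Nuclear_Het. Total RNA was divided, with 6 of 12 higher and 1 lower in Total_Hom, where 30.6% and 31.0% of all genes were called, and 3 higher and 3 lower in Total_Het, against 30.9% and 30.3%. The macrophage counts in Total_Het were thus no larger than the share over all genes. Between Total_Hom and Total_Het, 5 of 12 were higher and 2 lower in Total_Hom, against 32.9% and 34.1% of all genes. The higher ones were Lyz1, Lyz2, Cd14, Itgam and Itgax, and the lower ones Csf1r and Ccr2.

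Lyz2, the lysozyme of macrophages and neutrophils, was the most abundant macrophage gene per length, at 129 CPM per kilobase over all libraries against 23.7 for Csf1r. It measured 33.7, 39 and 37.3 CPM in Nuclear_WT, 306, 310.0 and 292 in Nuclear_Het and 77, 81.8 and 85.3 in Nuclear_Hom. For Lyz2, total RNA gave 137, 134 and 137 CPM in Total_WT, 111, 117 and 113 in Total_Het and 145, 146 and 145 in Total_Hom. The 3 nuclear groups did not overlap and spanned 8.3-fold from Nuclear_WT to Nuclear_Het (log2 3.05 ± 0.04 SE, edgeR adjusted p = 8.77e-66), with Nuclear_Hom between them (log2 1.16 ± 0.04). In total RNA it was lower in Total_Het than in Total_WT (log2 -0.26 ± 0.03), the opposite direction from nuclear RNA. Hom against Het also differed in direction, with Lyz2 higher in total RNA (log2 0.36 ± 0.03) and lower in nuclear RNA (log2 -1.90 ± 0.03). Lyz1 measured 0.501, 0.218 and 0.11 CPM in Nuclear_WT, 13.5, 13.9 and 13.2 in Nuclear_Het and 2.41, 2.58 and 1.93 in Nuclear_Hom. For Lyz1, total RNA gave 2.77, 2.5 and 3.36 CPM in Total_WT, 3.23, 3.48 and 3.18 in Total_Het and 9.84, 7.77 and 6.98 in Total_Hom. Lyz1 rose in Nuclear_Het (log2 5.51 ± 0.20) and Nuclear_Hom (log2 2.98 ± 0.30), and within total RNA it was highest in Total_Hom (log2 1.51 ± 0.14 SE, edgeR adjusted p = 2.67e-19). The longest coding transcripts of Lyz1 and Lyz2 have 1263 and 1316 bases and share a longest exact run of 118 bases, and 16.1% of the 50-base windows of Lyz1 occur in Lyz2. Reads from those stretches can be assigned to either gene, so part of the low Lyz1 signal is uncertain.

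Csf1r, the receptor through which macrophages are maintained, did not follow the other macrophage genes. It measured 86.1, 94.4 and 89.2 CPM in Nuclear_WT, 94.9, 95.6 and 92.4 in Nuclear_Het and 92.8, 89.9 and 92.5 in Nuclear_Hom. For Csf1r, total RNA gave 119, 119 and 121 CPM in Total_WT, 106, 109 and 104 in Total_Het and 49, 50.8 and 49.6 in Total_Hom. Its nuclear groups overlapped, and neither Het (log2 0.07 ± 0.04, edgeR adjusted p = 0.083) nor Hom (log2 0.03 ± 0.04, adjusted p = 0.495) passed against Nuclear_WT. In total RNA the 3 Total_Hom libraries lay below all other 15 libraries, and Csf1r fell by 2.39 times against Total_WT (log2 -1.26 ± 0.03 SE, edgeR adjusted p = 7.99e-71) and also against Total_Het (log2 -1.09 ± 0.04), a comparison of groups alike in Xist. The ratio of Csf1r to Ptprc CPM was 11.4 ± 1.06 in Nuclear_WT, 2.8 ± 0.0179 in Nuclear_Het and 8.94 ± 0.811 in Nuclear_Hom. In total RNA the same ratio was 7.97 ± 0.776, 6.83 ± 0.902 and 3.7 ± 0.118 in Total_WT, Total_Het and Total_Hom. The ratio is not corrected for gene length, so it is read only between groups.

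**Figure D3:**
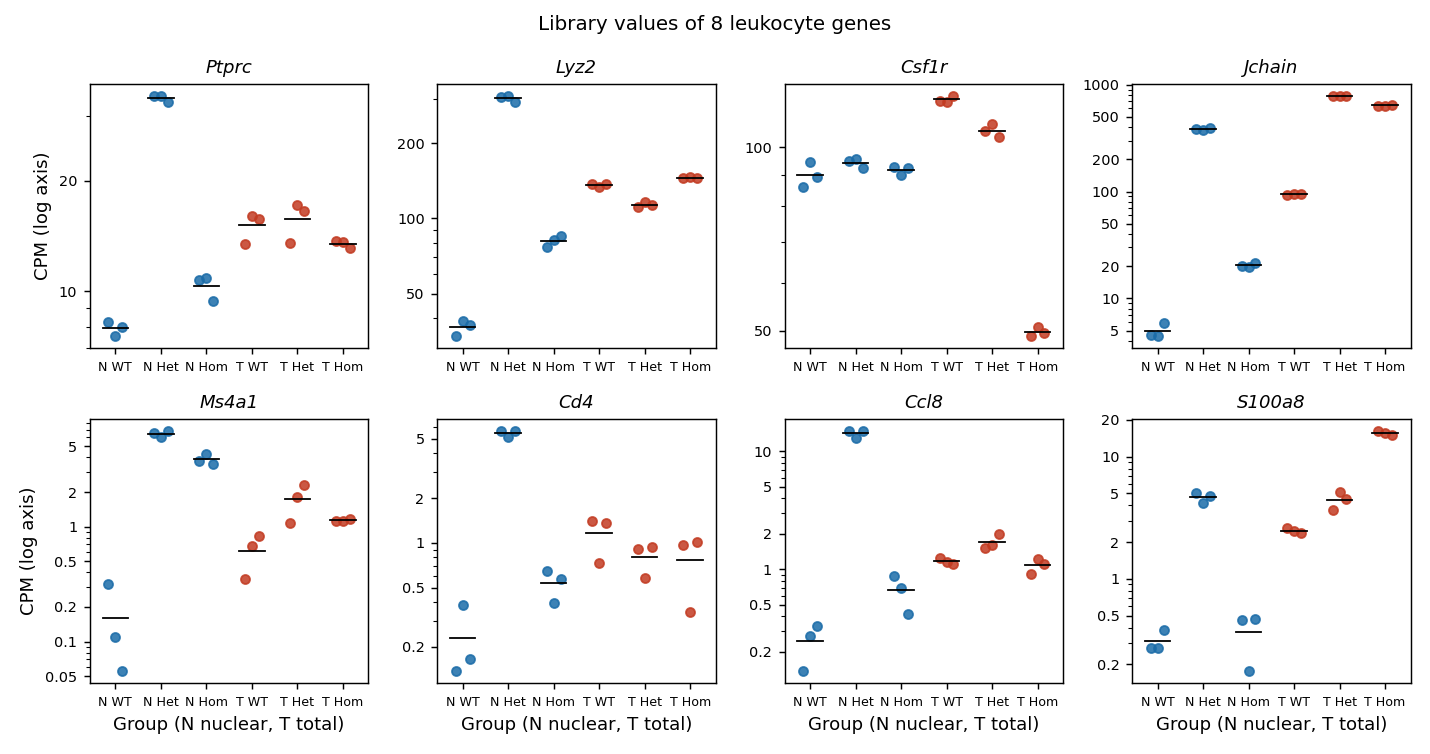
CPM on a log axis for Ptprc, Lyz2, Csf1r, Jchain, Ms4a1, Cd4, Ccl8 and S100a8 in every library; dots are libraries, short lines group means, blue nuclear and red total RNA. Csf1r stays within 86.1 to 94.4 CPM in Nuclear_WT and 92.4 to 95.6 CPM in Nuclear_Het, while Lyz2 and Ptprc separate them.

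Cd14 measured 8.24, 7.75 and 10.1 CPM in Nuclear_WT, 35.2, 32 and 33.9 in Nuclear_Het and 11.7, 15.4 and 13.7 in Nuclear_Hom. For Cd14, total RNA gave 20.1, 19.8 and 20.9 CPM in Total_WT, 14.5, 14.8 and 14 in Total_Het and 27, 27.1 and 28.1 in Total_Hom. It rose in both nuclear mutant groups (log2 1.96 ± 0.08 in Het, log2 0.66 ± 0.09 in Hom), fell in Total_Het (log2 -0.49 ± 0.08) and rose in Total_Hom (log2 0.44 ± 0.07). Ccr2, the receptor that draws monocytes from blood, measured 5.51, 5.24 and 6.86 CPM in Nuclear_WT, 24.1, 24 and 24.9 in Nuclear_Het and 7.32, 7 and 6.84 in Nuclear_Hom. For Ccr2, total RNA gave 14.4, 12.4 and 12.7 CPM in Total_WT, 16.4, 17.9 and 16.6 in Total_Het and 14.9, 12.2 and 14.1 in Total_Hom. Its rise in Nuclear_Het (log2 2.06 ± 0.09 SE, edgeR adjusted p = 3.34e-37) put all 3 libraries above the rest. Cx3cr1, the fractalkine receptor, measured 3.96, 3.17 and 2.47 CPM in Nuclear_WT, 17.7, 14.8 and 16.2 in Nuclear_Het and 4.68, 5.33 and 3.71 in Nuclear_Hom. For Cx3cr1, total RNA gave 10.5, 12.1 and 12.2 CPM in Total_WT, 10.8, 10.7 and 10.9 in Total_Het and 9.99, 11.1 and 10.6 in Total_Hom. Nuclear_Het was highest (log2 2.33 ± 0.12) and no total comparison of Cx3cr1 passed.

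Adgre1 measured 2.87, 3.33 and 3.9 CPM in Nuclear_WT, 17.3, 19 and 17.4 in Nuclear_Het and 4.58, 5.2 and 5.64 in Nuclear_Hom. For Adgre1, total RNA gave 9.87, 9.89 and 8.23 CPM in Total_WT, 9.08, 8.17 and 7.98 in Total_Het and 7.91, 8.36 and 8.39 in Total_Hom. The F4/80 antigen rose in Nuclear_Het (log2 2.42 ± 0.11) and in Nuclear_Hom (log2 0.62 ± 0.14), and none of its 3 total comparisons passed. Cd68 measured 4.33, 4.42 and 3.9 CPM in Nuclear_WT, 11, 11.1 and 9.84 in Nuclear_Het and 3.38, 4.37 and 3.92 in Nuclear_Hom. For Cd68, total RNA gave 7.3, 6.92 and 6.72 CPM in Total_WT, 6.02, 6.2 and 7.23 in Total_Het and 7.15, 8.21 and 6.67 in Total_Hom. Cd68 rose in Nuclear_Het (log2 1.34 ± 0.12), with Nuclear_Hom overlapping Nuclear_WT. Mrc1 measured 2.1, 1.8 and 2.2 CPM in Nuclear_WT, 9.42, 9.29 and 9.46 in Nuclear_Het and 3.52, 4.33 and 4.07 in Nuclear_Hom. For Mrc1, total RNA gave 5.14, 6.14 and 5.65 CPM in Total_WT, 5.62, 5.91 and 6.11 in Total_Het and 6.08, 6.05 and 6.12 in Total_Hom. Mrc1 rose in both nuclear mutant groups (log2 2.21 ± 0.14 and log2 0.97 ± 0.17) and its total groups overlapped.

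Itgam measured 2.41, 1.97 and 1.87 CPM in Nuclear_WT, 9.94, 9.49 and 10.5 in Nuclear_Het and 4.26, 3.41 and 3.45 in Nuclear_Hom. For Itgam, total RNA gave 4.99, 4.48 and 5.21 CPM in Total_WT, 4.65, 4.75 and 4.05 in Total_Het and 5.32, 6.68 and 6.88 in Total_Hom. The integrin rose in Nuclear_Het (log2 2.25 ± 0.14) and Nuclear_Hom (log2 0.82 ± 0.17). Itgax, found on dendritic cells and macrophages, measured 1.96, 1.53 and 1.04 CPM in Nuclear_WT, 7.1, 5.43 and 6.79 in Nuclear_Het and 1.99, 1.23 and 1.62 in Nuclear_Hom. For Itgax, total RNA gave 2.22, 2.45 and 1.61 CPM in Total_WT, 2.21, 2.55 and 4.12 in Total_Het and 4.51, 4.33 and 4.7 in Total_Hom. It rose in Nuclear_Het (log2 2.07 ± 0.18) and, in total RNA, was higher in Total_Hom than in Total_WT (log2 1.12 ± 0.17) and in Total_Het (log2 0.63 ± 0.17). Cd163, a scavenger receptor for hemoglobin, stayed under 2 CPM in every library and rose in Nuclear_Het (log2 1.94 ± 0.30).

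Chemokine genes, here Ccl2, Ccl5 and Ccl8, encode secreted proteins that attract leukocytes: Ccl2 acts on monocytes through CCR2, and Ccl5 on T cells and monocytes. All 3 rose in Nuclear_Het and fell in Nuclear_Hom against Nuclear_Het, against 32.8% and 21.8% of all genes. In total RNA 0 rose in either mutant by edgeR or DESeq2, and Ccl2 fell in Total_Het (log2 -0.98 ± 0.29) and in Total_Hom (log2 -0.63 ± 0.26). Among all genes 30.9% rose and 30.3% fell in Total_Het, and 30.6% rose and 31.0% fell in Total_Hom. Both Ccl2 calls were lost with the deposited column of Total_WT replicate 1, and that in Total_Hom also by DESeq2 and without any 1 of 4 libraries, Total_WT replicates 1 and 3 and Total_Hom replicates 1 and 3. Against Total_Het, Ccl5 (log2 -0.57 ± 0.24) and Ccl8 (log2 -0.65 ± 0.26) were lower in Total_Hom, calls lost by DESeq2, with library totals alone and with the deposited column, for Ccl5 also without Total_Het replicate 1 or Total_Hom replicate 2 and for Ccl8 without Total_Het replicate 3 or Total_Hom replicate 1. Ccl8 measured 0.137, 0.273 and 0.33 CPM in Nuclear_WT, 14.9, 12.9 and 15 in Nuclear_Het and 0.88, 0.7 and 0.418 in Nuclear_Hom. For Ccl8, total RNA gave 1.26, 1.15 and 1.12 CPM in Total_WT, 1.53, 1.62 and 2 in Total_Het and 0.912, 1.23 and 1.11 in Total_Hom. The Nuclear_Het libraries of Ccl8 lay far above all others, 58.1-fold above Nuclear_WT (log2 5.86 ± 0.21 SE, edgeR adjusted p = 2.48e-43), and Nuclear_Hom was log2 -4.39 ± 0.17 against Nuclear_Het. The ratio of Ccl8 to Ptprc CPM was 0.424 ± 0.0409 in Nuclear_Het against 0.0314 ± 0.0131 in Nuclear_WT and 0.0786 ± 0.013 in Total_WT. Ccl2 averaged 1.98 ± 0.298 CPM in Nuclear_Het and 0.185 ± 0.0663 in Nuclear_WT (log2 3.35 ± 0.37), and its Nuclear_Het and Total_WT libraries overlapped. Ccl5 averaged 4.74 ± 0.904 CPM in Nuclear_Het against 0.736 ± 0.256 in Nuclear_WT (log2 2.66 ± 0.23).

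T cell genes were low, with only Lck and Cd4 reaching 5 CPM in any group. Cd3d, Cd3e and Cd3g encode the signalling chains of the T cell receptor, Cd4 and Cd8a its co-receptors, Cd2 an adhesion molecule and Lck the kinase that starts the signal. In nuclear RNA all 7 rose in Nuclear_Het, 4 rose in Nuclear_Hom and 6 fell in Nuclear_Hom against Nuclear_Het (5 by DESeq2). Among all genes 32.8% rose, 26.5% rose and 21.8% fell in the same comparisons. Lck measured 0.957, 1.2 and 1.1 CPM in Nuclear_WT, 6.53, 5.69 and 7.11 in Nuclear_Het and 1.57, 1.44 and 2.09 in Nuclear_Hom. For Lck, total RNA gave 2.57, 1.87 and 1.9 CPM in Total_WT, 1.87, 2.32 and 2.31 in Total_Het and 2.64, 2.7 and 2.53 in Total_Hom. Its Nuclear_Het libraries lay above the other 15 (log2 2.57 ± 0.18). Cd4 measured 0.137, 0.382 and 0.165 CPM in Nuclear_WT, 5.68, 5.18 and 5.61 in Nuclear_Het and 0.648, 0.394 and 0.574 in Nuclear_Hom. For Cd4, total RNA gave 1.41, 0.729 and 1.36 CPM in Total_WT, 0.908, 0.579 and 0.935 in Total_Het and 0.963, 0.344 and 1.01 in Total_Hom. Cd4 rose 24.1-fold in Nuclear_Het (log2 4.59 ± 0.28 SE, edgeR adjusted p = 4.15e-27), and no total comparison of it passed. The CD3 chains averaged 2.96, 3.22 and 3.04 CPM for Cd3e, Cd3d and Cd3g in Nuclear_Het, against 0.325, 0.0942 and 0.447 in Nuclear_WT.

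Cd2 was high in Nuclear_Hom as well as in Nuclear_Het. Its means were 0.161 ± 0.139 CPM in Nuclear_WT, 3.3 ± 0.263 in Nuclear_Het and 2.3 ± 0.406 in Nuclear_Hom. The rise in Nuclear_Hom passed (log2 3.71 ± 0.36 SE, edgeR adjusted p = 1.15e-15). Cd3d also rose there (log2 2.40 ± 0.56) but from 0.0942 to only 0.572 CPM. Cd8a averaged 0.732 CPM in Nuclear_Het and 0.237 in Nuclear_WT. Of 6 T cell genes tested in total RNA, 0 were higher and 3 lower in Total_Hom than in Total_Het, against 32.9% and 34.1% of all genes. DESeq2 called 2 lower. The 3 were Cd3e (log2 -1.59 ± 0.42), Cd3g (log2 -0.97 ± 0.31) and Cd2 (log2 -0.93 ± 0.35). These calls rest on few counts, for Cd3e 18 in Total_Hom and 47 in Total_Het.

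B and plasma cell genes comprised Ms4a1, which encodes CD20 of mature B cells, Cd79a and Cd79b, the signalling chains of the B cell receptor, Pou2af1, a coactivator of B cell transcription, Mzb1, a chaperone of antibody secretion, and Jchain, which joins IgM and IgA into polymers. All 6 rose in Nuclear_Het and in Nuclear_Hom against Nuclear_WT, and all 6 rose in Total_Het and Total_Hom against Total_WT. Among all genes 32.8% and 26.5% rose in these nuclear comparisons, and 30.9% and 30.6% in the total ones. In Nuclear_Hom against Nuclear_Het all 6 fell, against 21.8% of all genes. By DESeq2 the counts were the same apart from 5 in Total_Hom against Total_WT.

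Jchain measured 4.6, 4.42 and 5.88 CPM in Nuclear_WT, 384, 377 and 389.5 in Nuclear_Het and 20.2, 19.6 and 21.4 in Nuclear_Hom. For Jchain, total RNA gave 92.7, 95.5 and 95.5 CPM in Total_WT, 775, 784 and 788 in Total_Het and 637, 635 and 644 in Total_Hom. No pair of groups overlapped, and the order was Nuclear_WT, Nuclear_Hom, Total_WT, Nuclear_Het, Total_Hom and Total_Het. Jchain rose 77.6-fold in Nuclear_Het (log2 6.28 ± 0.05 SE, edgeR adjusted p = 2.27e-94), 8.28-fold in Total_Het (log2 3.05 ± 0.02) and 6.78-fold in Total_Hom (log2 2.76 ± 0.02). Per length it was the most abundant member, at 153 CPM per kilobase. Mzb1 measured 0.774, 1.09 and 0.549 CPM in Nuclear_WT, 20.2, 21.5 and 20.6 in Nuclear_Het and 1.85, 2.45 and 1.98 in Nuclear_Hom. For Mzb1, total RNA gave 3.33, 2.24 and 2.97 CPM in Total_WT, 17.2, 17.6 and 16.6 in Total_Het and 13.9, 14 and 13.8 in Total_Hom. Like Jchain it was high in Nuclear_Het (log2 4.68 ± 0.14), Total_Het (log2 2.59 ± 0.11) and Total_Hom (log2 2.29 ± 0.12) and low in the other 3 groups. Pou2af1 measured 0.0911, 0.382 and 0.275 CPM in Nuclear_WT, 9.14, 10.9 and 9.2 in Nuclear_Het and 1.67, 1.84 and 0.888 in Nuclear_Hom. For Pou2af1, total RNA gave 1.56, 1.15 and 0.682 CPM in Total_WT, 6.53, 5.39 and 5.61 in Total_Het and 4.87, 5.6 and 6.02 in Total_Hom. It rose in both nuclear mutant groups (log2 5.31 ± 0.24 and log2 2.61 ± 0.37), and in both total mutant groups (log2 2.37 ± 0.19 and log2 2.29 ± 0.19), the last pair only with the corrected column of Total_WT replicate 1.

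Cd79a measured 0.228, 0.164 and 0.384 CPM in Nuclear_WT, 10.1, 8.88 and 11.5 in Nuclear_Het and 3.43, 3.76 and 3.39 in Nuclear_Hom. For Cd79a, total RNA gave 1.41, 1.09 and 0.974 CPM in Total_WT, 7.49, 6.6 and 7.3 in Total_Het and 6.03, 6.49 and 5.81 in Total_Hom. Cd79a rose in Nuclear_Het (log2 5.27 ± 0.22) and Nuclear_Hom (log2 3.75 ± 0.28). Cd79b measured 2.78, 2.56 and 2.86 CPM in Nuclear_WT, 10.8, 11.2 and 10.4 in Nuclear_Het and 6.25, 5.95 and 5.38 in Nuclear_Hom. For Cd79b, total RNA gave 3.22, 2.86 and 2.78 CPM in Total_WT, 4.94, 6.14 and 4.99 in Total_Het and 5.42, 5.06 and 6.02 in Total_Hom. Its rises were smaller, log2 1.99 ± 0.12 in Nuclear_Het and log2 1.10 ± 0.14 in Nuclear_Hom. Ms4a1 measured 0.319, 0.109 and 0.0549 CPM in Nuclear_WT, 6.49, 5.99 and 6.84 in Nuclear_Het and 3.7, 4.33 and 3.5 in Nuclear_Hom. For Ms4a1, total RNA gave 0.353, 0.677 and 0.828 CPM in Total_WT, 1.08, 1.8 and 2.31 in Total_Het and 1.11, 1.13 and 1.16 in Total_Hom. Ms4a1 rose in Nuclear_Het (log2 5.19 ± 0.27) and in Nuclear_Hom (log2 4.45 ± 0.31 SE, edgeR adjusted p = 1.38e-23), where Jchain had log2 2.04 ± 0.07. In total RNA its changes rest on the corrected column: with the deposited one they became -0.17 in Total_Het and -0.75 in Total_Hom on the log2 scale. The calls of Cd79a and Cd79b in total RNA were lost with the deposited column as well, while those of Jchain and Mzb1 were not.

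The ratio of Jchain to Ms4a1 CPM was 59.7 ± 3.05 in Nuclear_Het and 5.37 ± 0.796 in Nuclear_Hom, groups alike in Xist, and 499 ± 196 in Total_Het and 562 ± 8.71 in Total_Hom. In wild type it was 54 ± 47.7 in nuclear and 173 ± 78.9 in total RNA, with a wide spread, and Ms4a1 was under 1 CPM in each of those libraries. Jchain to Mzb1 was steadier, between 6.9 ± 3.43 in Nuclear_WT and 45.9 ± 0.476 in Total_Hom. Jchain was lower in the nuclear than in the total libraries of each genotype, at -4.26, -1.03 and -4.97 on the log2 scale in WT, Het and Hom. Those libraries also differed in Xist, so a nuclear share of Jchain and a difference between the animals cannot be told apart.

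The neutrophil calgranulins S100a8 and S100a9 form the heterodimer calprotectin. Both were highest in Total_Hom. S100a8 measured 0.273, 0.273 and 0.384 CPM in Nuclear_WT, 5.02, 4.21 and 4.81 in Nuclear_Het and 0.463, 0.175 and 0.47 in Nuclear_Hom. For S100a8, total RNA gave 2.62, 2.45 and 2.39 CPM in Total_WT, 3.69, 5.16 and 4.49 in Total_Het and 16.3, 15.6 and 15.1 in Total_Hom. Total_Hom stood above every other library, 6.33-fold above Total_WT (log2 2.66 ± 0.12 SE, edgeR adjusted p = 9.4e-46) and 3.54-fold above Total_Het. S100a9 measured 0.319, 0.382 and 0.549 CPM in Nuclear_WT, 6.72, 5.63 and 5.45 in Nuclear_Het and 0.972, 0.7 and 0.574 in Nuclear_Hom. For S100a9, total RNA gave 2.82, 3.33 and 2.87 CPM in Total_WT, 7.21, 7.65 and 8.17 in Total_Het and 19.7, 17.9 and 20.8 in Total_Hom. It followed S100a8 in total RNA (log2 2.70 ± 0.11 in Hom, log2 1.35 ± 0.13 in Het). The ratio of S100a8 to Ptprc was 1.16 ± 0.0216 in Total_Hom against 0.281 ± 0.0167 in Total_Het and 0.166 ± 0.0249 in Total_WT. Both genes also rose in Nuclear_Het (log2 3.90 ± 0.27 and log2 3.84 ± 0.24). In Nuclear_Hom both were lower than in Nuclear_Het (log2 -3.67 ± 0.26 and log2 -2.97 ± 0.20), the opposite direction from Hom against Het in total RNA. Against Nuclear_WT, S100a8 did not pass in Nuclear_Hom, and S100a9 rose (log2 0.87 ± 0.37), a call lost by DESeq2.

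Nkg7 and Gzma, proteins of cytotoxic granules, were at the lower limit of the data. Gzma, a granzyme, measured 0.592, 0.546 and 0.879 CPM in Nuclear_WT, 0.71, 0.761 and 0.802 in Nuclear_Het and 0.602, 0.437 and 0.418 in Nuclear_Hom. For Gzma, total RNA gave 1.21, 1.04 and 1.61 CPM in Total_WT, 0.738, 0.927 and 0.312 in Total_Het and 0.0507, 0.147 and 0 in Total_Hom. It had only 4 counts over the 3 Total_Hom libraries, and the fall against Total_WT passed (log2 -4.14 ± 0.53 SE, edgeR adjusted p = 8.21e-12). Nkg7 averaged 0.847 ± 0.101 CPM in Total_Het and 0.285 ± 0.148 in Total_Hom (log2 -1.55 ± 0.44).

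Nuclear and total RNA were compared within each genotype in a fit over all 18 libraries. In WT 0 of 38 genes were higher in nuclear RNA and 32 lower by edgeR, against 30.9% and 30.8% of all genes, with 0 higher and 32 lower at an unadjusted p under 0.05 and 0 higher and 31 lower by DESeq2. In Het 30 were higher and 3 lower, against 33.4% and 30.2%, and in Hom 4 were higher and 25 lower, against 30.5% and 29.8%. The medians were -1.22, 1.01 and -0.74. In each genotype the fractions differed in Xist status, so a nuclear share of a transcript and a difference between the animals cannot be told apart. Ptprc was -0.93, 1.10 and -0.38 in WT, Het and Hom, and Lyz2 -1.89, 1.41 and -0.84, so both changed sign between WT and Het. The 4 genes higher in nuclear RNA in Hom were Gzma, Cd2, Ms4a1 and Csf1r, at 2.75, 2.05, 1.76 and 0.88, and S100a8 was -5.41 there. In WT Csf1r was -0.41.

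**Figure D4:**
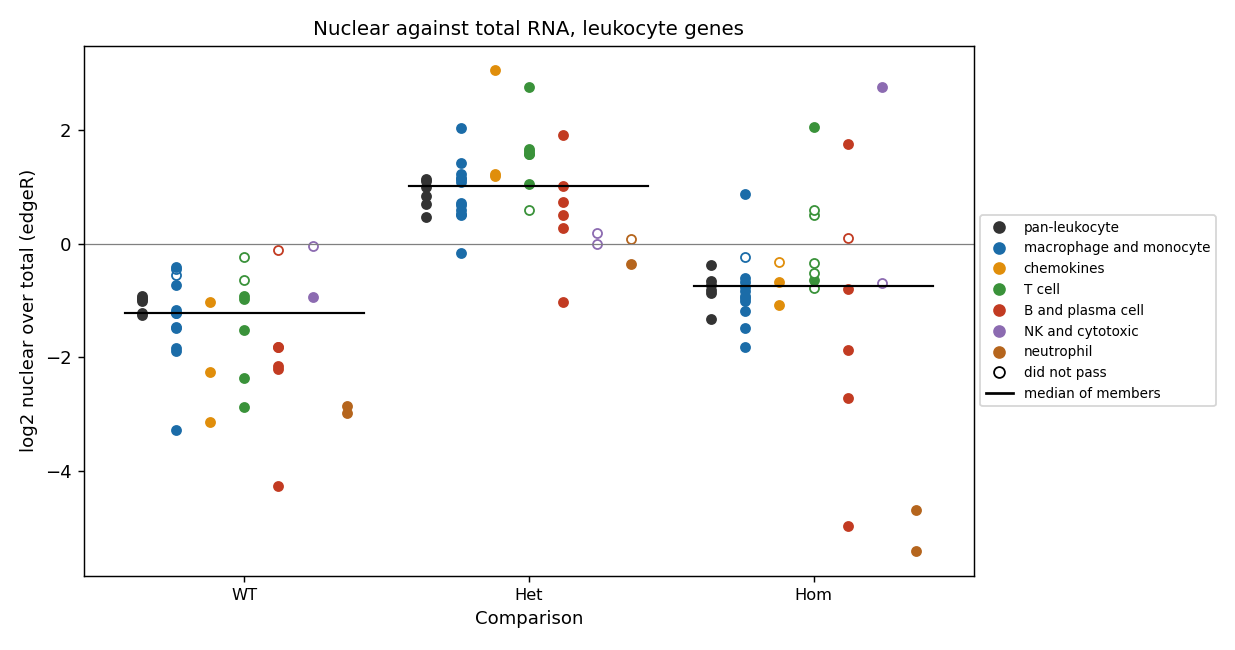
Points are single leukocyte genes, as log2 of nuclear against total RNA in WT, Het and Hom; filled points passed, open points did not, colour gives the lineage and the black line the median. The median is -1.22 in WT and 1.01 in Het.

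The change of the nuclear-to-total ratio was tested as an interaction. Against WT it was higher in Het for 36 genes and lower for 0, against 37.8% and 32.9% of all genes, with the same 36 and 0 at an unadjusted p under 0.05 and 34 and 0 by DESeq2. In Hom it was higher for 19 and lower for 5, against 28.4% and 27.7%. The lower 5 were Jchain, Mzb1, Itgax, S100a8 and S100a9. The call of Itgax and that of Mzb1 were lost with the deposited column of Total_WT replicate 1, which left 3 lower, and the call of Mzb1 also without Nuclear_WT replicate 2. Both comparisons with WT share the WT libraries.

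Further leukocyte genes, from lists by lineage that hold no member, were counted in the same fits. The lists were also chosen with earlier results of these data known. Of 115 genes listed, 106 had a row in the count table, and 88 passed the low-count filter in nuclear RNA. A gene of low counts can pass that filter through the group where it is high. The counts below may therefore be partly set by the filter. Of the 88 genes tested, 84 rose and 2 fell in Nuclear_Het against Nuclear_WT, where 32.8% and 31.7% of all genes were called. In Nuclear_Hom 40 rose and 5 fell, against 26.5% and 27.8%, and against Nuclear_Het 1 rose and 82 fell there, against 21.4% and 21.8%. In total RNA, of 84 tested, 33 rose and 13 fell in Total_Het and 29 rose and 9 fell in Total_Hom against Total_WT. Among all genes 30.9% and 30.3% were called in Total_Het and 30.6% and 31.0% in Total_Hom, so the rises there lay near the background. By nuclear against total RNA, of 90 tested, 2 were higher and 68 lower in WT, 70 and 6 in Het, and 11 and 54 in Hom, where the higher calls were 30.9%, 33.4% and 30.5% of all genes and the lower calls 30.8%, 30.2% and 29.8%. The immunoglobulin constant genes were not analysed here.

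The 3 most abundant genes of each such list are named with their nuclear means in Nuclear_WT, Nuclear_Het and Nuclear_Hom. Cd74, the invariant chain of antigen presentation, averaged 379, 919 and 276 CPM, and C1qb, a complement chain made by macrophages, 14.7, 67.2 and 19.2. Mertk, an engulfment receptor, was 1 of the 2 that fell in Nuclear_Het (log2 -0.42 ± 0.04), and Xbp1, a secretory pathway regulator that tubule cells also express, was the other (log2 -0.27 ± 0.03). Of the pan-leukocyte genes, Arhgdib averaged 49.2, 73 and 46.8 CPM, Lcp1 26.6, 63.2 and 34.4, and Ptpn6 31.7, 37.5 and 31.6. The T cell genes Tcf7, Il7r and Ptprcap reached 7.38, 5.19 and 4.74 CPM in Nuclear_Het, against 1.22, 0.395 and 0.48 in Nuclear_WT. Irf4, a factor of plasma cells, averaged 1.19, 7.05 and 1.7 CPM in nuclear RNA and 1.39, 4.78 and 4.26 in total RNA, high in the same 3 groups as Jchain, whereas Fkbp11 stayed between 6.68 and 11.8. The neutrophil gene Retnlg was highest in Total_Hom at 4.83 CPM, against 0.42 in Total_WT and 0.532 in Total_Het, as was Csf3r, the receptor for granulocyte growth, at 6.23 against 2.01 and 4.91. Il1b averaged 1.9 CPM in Nuclear_WT and 5.35 in Nuclear_Het. Dendritic cell genes gave 15.7 and 37.1 CPM for Irf8, 4.19 and 5.43 for Zbtb46 and 2.14 and 3.13 for Siglech in Nuclear_WT and Nuclear_Het. The ligands Cxcl12, Cx3cl1 and Cxcl16, which kidney cells also make, averaged 286, 96 and 87.3 CPM in Nuclear_Het against 166, 84.5 and 61.7 in Nuclear_WT.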

How the data were processed

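Per the labels' protocols, TRIzol was used for the RNA and a stranded mRNA kit from KAPA for the libraries. The deposited table holds raw read counts per gene symbol, which the authors made with CASAVA, STAR 2.5.2b and featureCounts on mm9, per the submitters' processing notes, which also name DESeq2; the annotation and the strand setting are not given in the sources used here. The 18 count columns were matched to samples by name. The nuclear sum was subtracted from Total_WT replicate 1, and the deposited column was kept as an alternative.

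Counts were fitted with edgeR 4.0.16 (filterByExpr, TMM, robust quasi-likelihood test, Benjamini-Hochberg adjusted p under 0.05) in R 4.3.3, on the 9 libraries of a fraction for genotypes (15112 nuclear and 15051 total genes) and on all 18 for fractions and ratios (15410 genes); errors of log2 changes are SE. CPM used TMM factors over all 18 libraries. Library values are printed for members with a mean of at least 5 CPM in a group and for the most abundant member of each lineage, and other genes of each list are named by mean CPM. Alternatives were DESeq2 1.42.0, RLE factors, library totals alone, no filter on low counts, a replicate block and leaving out each library. The fits were tested on simulated data. The mean chi-square per gene between 2 libraries of a group ranged from 1.39 in Total_Het to 104 in Total_Hom, with Rn45s included. All values lay above sampling noise alone, the lowest only slightly, which does not tell separate mice from repeats of a preparation. Members and lists were chosen with earlier results of these data known. Sequences are from RefSeq on GRCm38.p6, and lysozyme transcripts from GENCODE; none of their coordinates was joined to the mm9 counts.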

Additional observations from a re-analysis of the deposited data

Results flagged for a closer look

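The nuclear-to-total ratio of a gene differed between a mutant and WT for 60 results, by the edgeR interaction test at an adjusted p under 0.05. Values are log2 changes of the ratio, and a positive value means that the mutant had more nuclear RNA relative to total RNA. Nuclear and total libraries differed in Xist in every genotype, so these differences cannot be told apart from differences between the animals.

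In Het against WT, 36 genes differed, all higher, where 37.8% of all genes were higher and 32.9% lower. The pan-leukocyte genes that passed were Coro1a (1.98), Ctss (2.41), Fcer1g (1.70), Laptm5 (1.84), Ptprc (2.03) and Tyrobp (1.66). The macrophage and monocyte genes that passed were Adgre1 (2.57), Ccr2 (1.69), Cd14 (2.45), Cd163 (1.06), Cd68 (1.45), Csf1r (0.24), Cx3cr1 (2.43), Itgam (2.37), Itgax (1.57), Lyz1 (5.32), Lyz2 (3.31) and Mrc1 (2.14). The chemokine genes that passed were Ccl2 (4.33), Ccl5 (2.27) and Ccl8 (5.32). The T cell genes that passed were Cd2 (3.16), Cd3d (4.44), Cd3e (2.60), Cd3g (1.70), Cd4 (5.13) and Lck (2.54). The B and plasma cell genes that passed were Cd79a (2.65), Cd79b (1.12), Jchain (3.23), Ms4a1 (3.73), Mzb1 (2.09) and Pou2af1 (2.94). Among cytotoxic genes Gzma (1.12) passed. The neutrophil genes that passed were S100a8 (3.06) and S100a9 (2.49). Values were largest for Ccl8, Lyz1 and Cd4.

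In Hom against WT, 24 genes differed, 19 higher and 5 lower, where 28.4% of all genes were higher and 27.7% lower. The pan-leukocyte genes that passed were Coro1a (0.32), Fcer1g (0.40), Laptm5 (0.28) and Ptprc (0.55). The macrophage and monocyte genes that passed were Adgre1 (0.80), Csf1r (1.29), Cx3cr1 (0.65), Itgax (-1.05), Lyz1 (1.47), Lyz2 (1.05) and Mrc1 (0.86). The chemokine genes that passed were Ccl2 (2.06) and Ccl8 (1.58). The T cell genes that passed were Cd2 (3.58), Cd3d (2.53), Cd3e (1.52) and Cd4 (1.85). The B and plasma cell genes that passed were Cd79a (1.36), Jchain (-0.71), Ms4a1 (3.58) and Mzb1 (-0.90). Among cytotoxic genes Gzma (3.70) passed. The neutrophil genes that passed were S100a8 (-2.43) and S100a9 (-1.83). Ms4a1, Cd2 and Gzma had the largest rises and S100a8 the largest fall, although Gzma had 4 counts in all in Total_Hom.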

How the results depend on the processing

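The counts of members higher or lower stayed within 1.5 times their value in 270 of 282 checks and the single-gene calls kept direction and threshold in 3849 of 4031, with 178 that no longer passed and 4 that turned. RLE factors and the omission of the low-count filter changed no count of members by over 1.5 times. The cause of each change below was not tested.

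With the deposited column of Total_WT replicate 1, in total RNA Hom against WT 11 members rose, in Het against WT 7 rose and 2 fell, in Hom against Het 6 fell, and 3 had a lower nuclear-to-total ratio in Hom. The same column turned Ms4a1 (-0.75 in Total_Hom and -0.17 in Total_Het against Total_WT) and Cd2 (-0.18 in Total_Het against Total_WT), on the log2 scale. With library totals alone, 10 members fell in Total_Het against Total_WT, 7 fell in Total_Hom against Total_Het and 1 had less nuclear than total RNA in Het, where Csf1r turned to 0.0271. DESeq2 gave 2 lower in Total_Hom against Total_WT and 8 lower in Total_Hom against Total_Het.

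Library totals alone moved 18 of 42 lineage sums: the pan-leukocyte sums to 48.16, 233.7 and 67.04 CPM in the nuclear WT, Het and Hom groups and 111.2, 106.4 and 119.9 in the total ones. Macrophage sums became 148.1 and 573.3 in nuclear WT and Het and 347.4, 272.1 and 297.3 in total WT, Het and Hom. T cell sums became 26.68 in nuclear and 7.349 in total Het. B and plasma cell sums became 467.8 and 37.94 in nuclear Het and Hom and 107.7, 756.0 and 690.3 in total WT, Het and Hom. The medians over all genes shifted by up to 0.36 on the log2 scale with that scaling.

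Leaving out 1 library at a time, members lower in Nuclear_Hom against Nuclear_WT ranged from 0 to 1, the 1 without Nuclear_WT replicate 2, and members lower in Total_Hom against Total_WT from 2 to 5, the 2 without Total_Hom replicate 1. A replicate block changed no count of members by over 1.5 times: 36 rose in Nuclear_Het against Nuclear_WT. Same-numbered libraries correlated at -0.123 to 0.105 in their deviations, against -0.179 to 0.146 for libraries of different number. Of 27, 13 correlated best with their own number. Sampling noise weighs on these deviations, so the check cannot decide whether the numbers pair the libraries. Depth limits Gzma, Nkg7, Cd8a and the T cell genes, several of which have few counts in Nuclear_WT.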
